A study of Mus musculus with 24 samples.

Results

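The 8 genes described here encode surface proteins through which a macrophage stimulates or restrains a T cell. They are the B7 family members Cd80, Cd86, Icosl, Cd274 and Cd276, the tumour necrosis factor receptor Cd40, the tumour necrosis factor ligand Tnfsf9 and the poliovirus receptor gene Pvr. They were taken by gene name from the gene probes of each array, and every probe was used: 16 probes of 56605. All 16 passed the filter on dim probes, which kept 38856 probes of 25644 genes.

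A T cell that meets its antigen needs further contacts before it divides and acts. CD80 and CD86 give this co-stimulation through CD28 and are also bound by the inhibitory receptor CTLA-4, ICOSL acts through ICOS, and the ligand encoded by Tnfsf9 acts through 4-1BB. CD40 is a receptor on the macrophage that is engaged by CD40 ligand on the T cell, whereas PD-L1, encoded by Cd274, restrains T cells through PD-1. Interferon gamma and bacterial lipopolysaccharide are known inducers of CD40, CD86 and PD-L1 in macrophages.

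Expression was measured on 24 one-colour Agilent arrays in mouse bone marrow derived macrophages, which are grown from marrow cells in the growth factor M-CSF (20 ng/ml, 6 days). The WT cells were Slc2a1 fl/fl floxed controls. The KO cells were Slc2a1M-/- (LysMCre X Slc2a1fl/fl), in which Cre driven from the lysozyme locus Lyz2 is meant to delete the glucose transporter GLUT1 in myeloid cells. Each genotype was left unstimulated (M0), given LPS at 5 ng/ml together with IFNγ at 10 ng/ml (M1) or given IL-4 at 10 ng/ml (M2), each for 24 hours, and each of these 6 groups had 4 biological replicates. All cells of both genotypes thus carried the floxed alleles and had been grown in M-CSF. The strain, age and sex of the mice are not given in the sources used here. Whether a replicate was 1 mouse or several is not given either.

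Levels are log2 intensities relative to the 75th percentile of the array, so a level of 0 is the brightness that 75% of the gene probes do not reach, and a level of one probe is not set against that of another. Differences are log2 differences ± the standard error of a limma fit on all 24 arrays, and a gene was called where the p-value adjusted over all 38856 probes was under 0.05. The macrophage markers Adgre1, Csf1r, Cd68, Itgam, Fcgr1, Mertk and Cd14 were well above background on every array that gave a value, while of 6 T cell markers 3 were so on every array and 2, Cd3g and Cd8a, on 0 of 24. Slc2a1 itself did not differ past the threshold between KO and WT (-0.33, 0.25 and -0.18 in M0, M1 and M2), and its probe cannot check the deletion because the deleted exons are not given. Lyz2, the site of the Cre insertion, gave -2.66, -3.37 and -4.04 by its brightest probe and was lower in KO in each state. A second Lyz2 probe gave larger differences, at -7.38, -6.20 and -7.87. There were 3 slides, each with 1 array of every group and a further WT and KO pair of 1 state. These 3 further pairs, the fourth set, stood apart: Uty, Ddx3y and Eif2s3y, which are Y-linked, were well above background on 0 of its 6 arrays against 18 of 18 others, and Xist on 6 of 6 against 2 of 18. The fourth set holds replicate 2 of M0, replicate 3 of M1 and replicate 4 of M2 in both genotypes. These are bulk RNA samples, in which fewer cells of a type and less RNA per cell cannot be told apart.

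Cd80 was read by 4 probes and Cd86 by 4, Icosl and Pvr by 2 each, and the other genes by 1. The Cd80 probes did not all give the same M1 response. The 2 of them shown in full moved in parallel, and the 2 that differed most are not shown. Also shown are a Cd86 probe, whose KO minus WT difference in M1 did not pass in the main fit, and the probe of Cd40. All 4 probes shown lie in the protein-coding part of the transcript. The sequences are those of the array design, 60 bases each, 5′ to 3′ along the transcript. They are all in lower case, since no single stretch of a probe is singled out.
Cd80 A_52_P244005: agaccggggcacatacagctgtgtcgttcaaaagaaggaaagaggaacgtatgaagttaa
Cd80 A_66_P130432: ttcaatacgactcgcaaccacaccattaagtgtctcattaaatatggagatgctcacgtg
Cd86 A_51_P174723: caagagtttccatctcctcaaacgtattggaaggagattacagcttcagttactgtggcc
Cd40 A_52_P409601: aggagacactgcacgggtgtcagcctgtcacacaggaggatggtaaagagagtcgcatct

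On the mouse build mm9, as the array files give it, the Cd80 probes lie at chr16:38474174-38474233 and chr16:38479343-38479402 on the + strand. The Cd86 probe lies at chr16:36615381-36615440 on the - strand and the Cd40 probe at chr2:164896301-164896360 on the + strand. The first Cd80 probe starts at base 583 of its transcript and the second at base 872. The other Cd80 probes lie further towards the 3′ end: A_55_P2001218, the brightest of the 4, starts at base 1457, and A_51_P418295 starts at base 2338 of a different, predicted transcript. Of the Cd86 probes, A_51_P174723 starts at base 815, A_52_P145861 at base 1928 and A_55_P1971951, the brightest, at base 2473, while A_55_P2715366 was designed on a separate Ensembl transcript. An annotation of mm9 was not used here, so exons are not assigned.

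Promoter windows of 250 bases before the RefSeq start site (GRCm38.p6) were given for 4 of the 8 genes, Cd80, Cd274, Icosl and Cd276. They were searched on both strands for the interferon gamma element GAS (TTCNNNGAA), the STAT6 site (TTC and GAA with 4 bases between them), the core of the interferon element ISRE (GAAA repeated once after 2 bases) and the kappaB consensus. None of the 4 windows held a match, which says only that these letters are not in these 250 bases. Of 32544 such windows, 7.04% held the GAS letters, 5.89% those of the STAT6 site, 2.98% those of the ISRE core and 3.92% the kappaB consensus, and matches of different motifs may share bases.

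**Figure D1:**
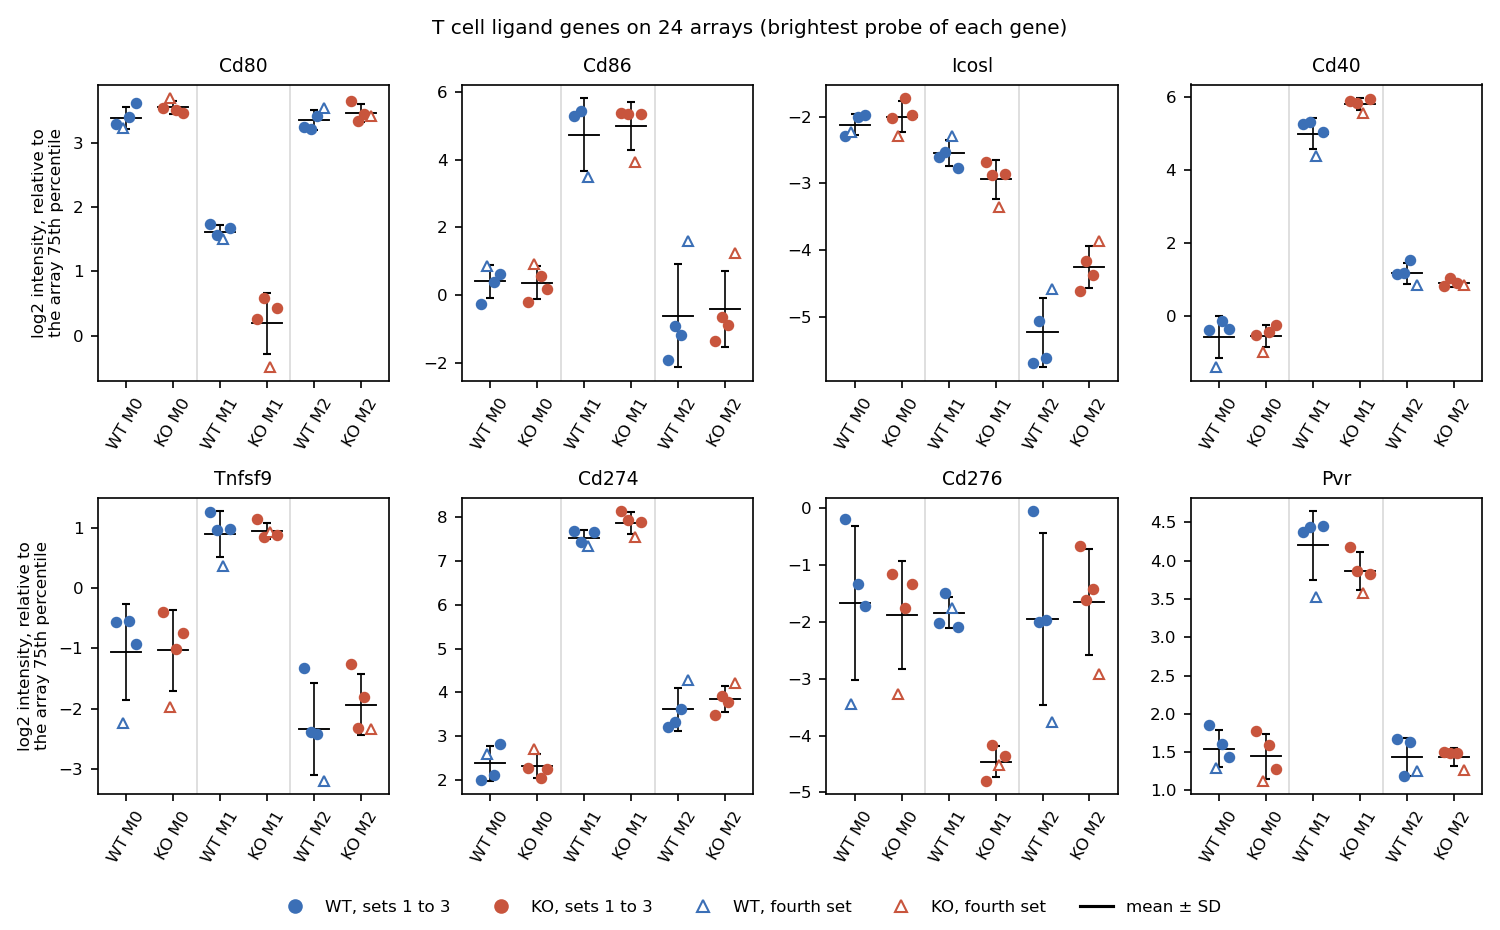
Levels of the 8 genes (brightest probe of each) on the 24 arrays, as log2 intensity relative to the array's 75th percentile, by group. Points are single arrays, open triangles those of the fourth set, and bars are the mean ± SD; Cd40, Cd274, Cd86 and Pvr were highest in M1 in both genotypes, Icosl was lowest in M2, and Cd80 and Cd276 were lowest in KO M1.

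With M1 activation, Cd40, Cd274, Cd86, Pvr and Tnfsf9 rose in both genotypes and the brightest Cd80 probe fell in both. In WT 5 of the 8 genes rose and 1 fell, and in KO 5 rose and 3 fell, the further falls being those of Icosl and Cd276. By probe, 10 of 16 were higher and 2 lower in WT, and 9 and 7 in KO; the lower ones include, in both genotypes, an Icosl probe that was measured only in M0. Over all probes 48.1% were called in WT (25.6% higher, 22.5% lower) and 57.6% in KO (33.3% higher, 24.4% lower). The M0 and M1 arrays did not overlap for 6 of the 8 genes in WT and for 8 in KO, against 45.1% and 52.2% of all probes. The median difference of the 8 genes was 2.31 in WT and 2.2 in KO, against medians of 0.02 and 0.22 over all probes. With IL-4, 2 genes rose and 2 fell in WT and 2 rose and 1 fell in KO, where 15.1% (6.12% higher, 8.99% lower) and 13.5% (7.07% higher, 6.39% lower) of all probes were called. Of the falls in WT, that of Tnfsf9 held its call under only 9 of the 19 settings run. The M0 and M2 arrays did not overlap for 3 genes in WT and 3 in KO, against 16.6% and 19% of all probes.

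Of the B7 ligands of CD28, Cd80 was lower in KO than in WT after M1 activation by every one of its probes. By the brightest probe its levels in replicates 1 to 4 were 1.73, 1.57, 1.5 and 1.68 in WT M1 and 0.25, 0.59, -0.49 and 0.43 in KO M1. The KO M1 arrays all lay below the WT M1 arrays, and the lowest of them was that of the fourth set. The WT M0 arrays read 3.29, 3.23, 3.41 and 3.62 and the KO M0 arrays 3.55, 3.70, 3.52 and 3.47. The WT M2 arrays read 3.25, 3.21, 3.41 and 3.54 and the KO M2 arrays 3.66, 3.34, 3.45 and 3.42. These 4 groups overlapped, so the order of the levels was M0 and M2 of both genotypes together, then WT M1, then KO M1.

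The Cd80 difference between KO and WT in M1 was 2.69-fold by this probe (adjusted p = 4.99e-07 in limma), and -1.79 ± 0.21, -1.72 ± 0.24 and -1.88 ± 0.33 by A_52_P244005, A_66_P130432 and A_51_P418295. The groups did not overlap on any of the 4 probes. Within the sets of arrays the difference was below 0 on 4 of 4 sets for each probe, from -2.53 to -0.98 over all of them. Without the fourth set the 4 probes gave -1.24 to -1.73, and all 4 stayed under the threshold.

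The response of Cd80 to M1 activation itself depended on the probe. In WT it was -1.76 ± 0.17 by the brightest probe (adjusted p = 2.72e-08 in limma), -0.05 ± 0.21 by A_52_P244005 and 0.31 ± 0.24 by A_66_P130432, the coding probes shown above, and 0.89 ± 0.33 by A_51_P418295 (adjusted p = 0.031). The last rise did not pass when replicate 1, 3 or 4 of WT M0 or replicate 2 or 4 of WT M1 was left out (0.73 to 0.88, adjusted p of 0.0581 to 0.103). In KO the same probes gave -3.37, -1.69, -1.35 and -0.89, and each passed the threshold. Whether Cd80 RNA fell or rose with M1 activation in WT thus cannot be stated for the gene as a whole, whereas the position of KO below WT did not depend on the probe. Differences between probes were not tested.

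The 2 coding probes moved in parallel. A_52_P244005 read -1.86, -1.24, -1.73 and -1.25 in WT M1 and -3.39, -2.71, -3.82 and -3.33 in KO M1, and A_66_P130432 read -1.85, -1.20, -1.95 and -1.36 in WT M1 and -3.74, -2.79, -3.63 and -3.09 in KO M1. On both probes every KO M1 array lay below every other array of the study. Without the fourth set A_51_P418295 gave -0.34 (adjusted p = 0.304) in KO and 1.21 (adjusted p = 0.00179) in WT. Its call in KO was also lost without replicate 1 or 3 of KO M1 (adjusted p = 0.0683 and 0.130), without replicate 2 of KO M0 (adjusted p = 0.0913) and with only the groups compared (adjusted p = 0.114). The difference of the M1 response between the genotypes was -1.60 ± 0.24 by the brightest probe (adjusted p = 2.28e-05) and -1.65, -1.66 and -1.78 by the others, and 4 of 4 probes passed. With IL-4 the brightest probe stayed level (-0.03 ± 0.17 in WT, -0.09 ± 0.17 in KO), and A_52_P244005 gave -0.61 (adjusted p = 0.0524) and -0.63 (adjusted p = 0.0491). The first of these passed under 6 of the 18 settings run, among them the replicate number (adjusted p = 0.0476) or the set (adjusted p = 0.0453) as a block. The second kept its call under only 6 of 18, and lost it without the fourth set (adjusted p = 0.155).

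**Figure D2:**
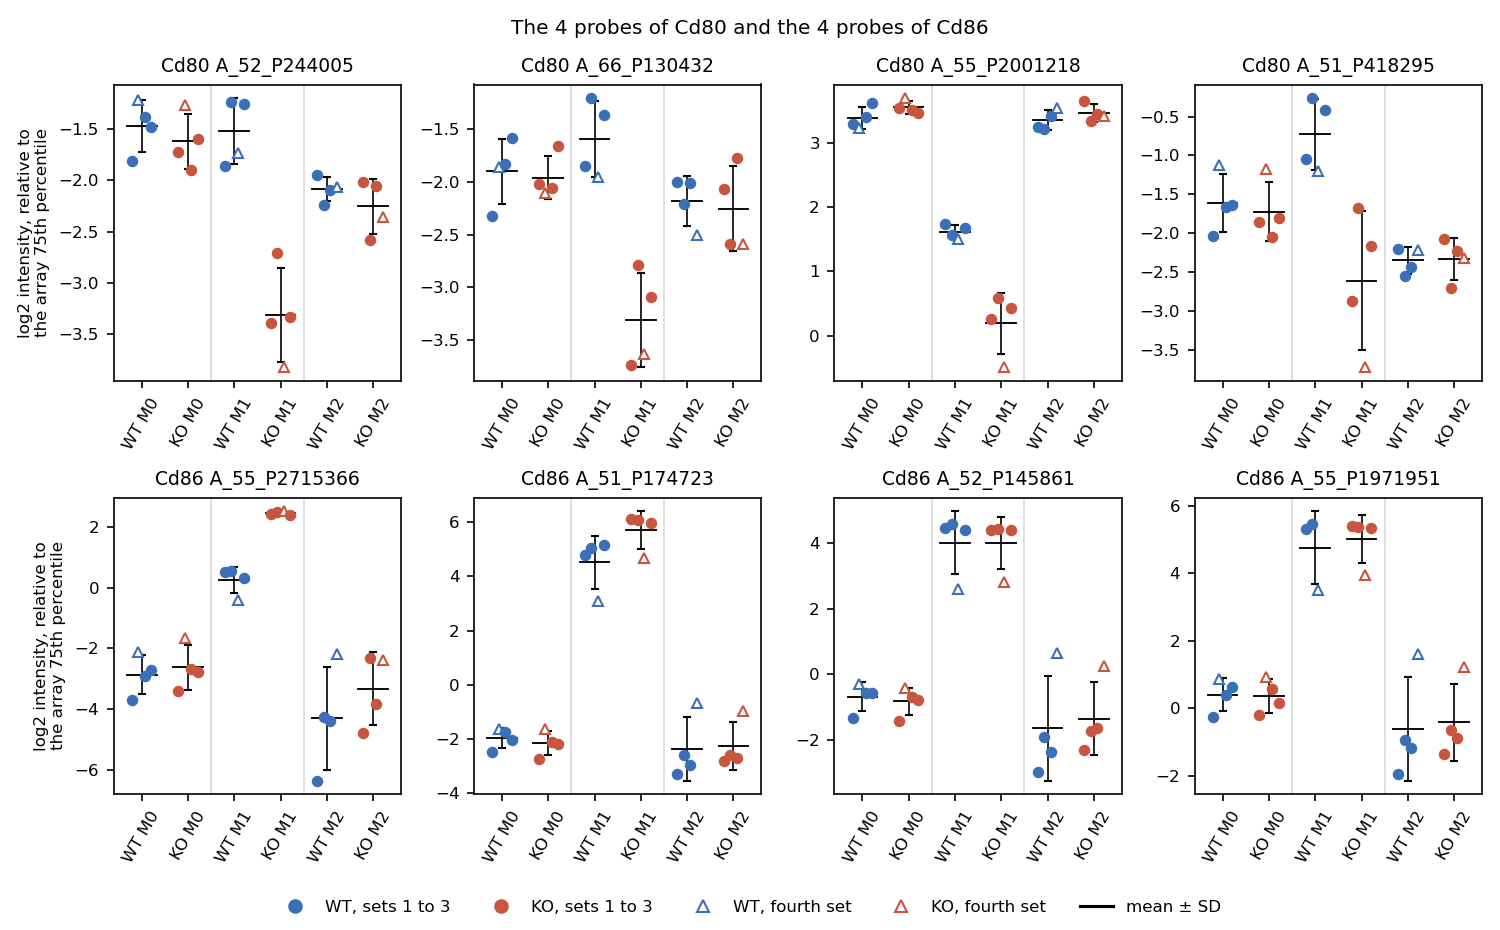
Levels of the 4 Cd80 probes (upper row) and the 4 Cd86 probes (lower row) on the 24 arrays, as log2 intensity relative to the array's 75th percentile, with group means ± SD and the fourth set as open triangles. The Cd80 probes share the low KO M1 values but differ in where WT M1 lies relative to M0. The Cd86 probes A_55_P2715366 and A_51_P174723 show KO M1 above WT M1, the second with overlapping arrays, where the other 2 do not.

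Cd86, the other ligand of CD28 and CTLA-4, rose with M1 activation in both genotypes on all 4 probes. By the brightest probe its levels were -0.26, 0.86, 0.40 and 0.63 in WT M0 and 5.30, 5.44 and 3.5 in WT M1, where the spot of replicate 4 was an outlier and was left out. In KO they were -0.21, 0.92, 0.57 and 0.17 in M0 and 5.38, 5.37, 3.95 and 5.35 in M1. The M1 arrays all lay above the M0 arrays, and the lowest M1 array of each genotype was that of the fourth set. The rise was 20.3-fold in WT and 25.1-fold in KO (adjusted p = 4.05e-05 and 4.52e-06 in limma). In WT this is a log2 difference of 4.34 ± 0.71 from 3 M1 arrays, which became 4.97 without replicate 3 of WT M1 and 5.12 without the fourth set.

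By A_51_P174723, the coding probe shown above, the rise of Cd86 was 88.9-fold in WT (6.47 ± 0.54, and 7.07 without the fourth set) and 234-fold in KO. The levels of this probe in M1 were 4.81, 5.03, 3.09 and 5.16 in WT and 6.12, 6.08, 4.69 and 5.98 in KO. The groups overlapped only through the WT arrays above replicate 3 of KO, and within each of the 4 sets KO was above WT, by 0.81 to 1.60. The KO minus WT difference was 1.19 ± 0.54 (adjusted p = 0.0796), and it passed under 4 of the 18 settings run. These were the replicate number as a block (adjusted p = 0.0369), normexp background correction (adjusted p = 0.0451) and the fits without replicate 3 of KO M1 (adjusted p = 0.0326) or without the fourth set (1.06, adjusted p = 7.37e-04). It did not pass with the set as a block (adjusted p = 0.0803), with quantile normalization (0.87, adjusted p = 0.171) or without replicate 3 of WT M1 (0.72, adjusted p = 0.294).

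The Cd86 probe on the separate Ensembl transcript, A_55_P2715366, read 0.52, 0.55, -0.39 and 0.33 in WT M1 and 2.42, 2.50, 2.52 and 2.42 in KO M1. The KO arrays were all above the WT arrays, by 4.64-fold (2.21 ± 0.64, adjusted p = 0.00777 in limma). The 2 probes nearer to the 3′ end gave -0.01 ± 0.66 and 0.26 ± 0.71, so a higher Cd86 level in KO M1 was a matter of the probe. The difference of the M1 response between the genotypes was 1.98 ± 0.91 on A_55_P2715366 (adjusted p = 0.113), and it passed under 4 of the 25 settings run. Among these were the replicate number (adjusted p = 0.0474) or the set (adjusted p = 0.0398) as a block. Over all settings its adjusted p reached 0.203.

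With IL-4 the Cd86 levels were -1.93, -0.93, -1.18 and 1.59 in WT and -1.36, -0.64, -0.88 and 1.23 in KO by the brightest probe. In both genotypes replicate 4, the array of the fourth set, was the only one above the M0 mean. The M2 difference from M0 was -1.02 ± 0.66 in WT (adjusted p = 0.336), and in KO it was -0.78 ± 0.66 (adjusted p = 0.485). It passed under 2 of the 18 settings run in WT and 1 of 18 in KO. Without the fourth set it was -1.60 (adjusted p = 0.00179) and -1.14 (adjusted p = 0.0171). The order of the levels was thus M1 above M0 above M2 on the other 18 arrays, while M0 and M2 overlapped on all 24.

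Icosl, the ligand of ICOS, fell with IL-4 in both genotypes. By its brighter probe its levels were -2.29, -2.23, -2.00 and -1.98 in WT M0 and -5.69, -5.06, -5.61 and -4.58 in WT M2, and -2.02, -2.29, -1.72 and -1.98 in KO M0 and -4.61, -4.17, -4.37 and -3.86 in KO M2. The M2 arrays lay below all M0 and M1 arrays, and the highest M2 array of each genotype was that of the fourth set. The fall was at least 7.92-fold in WT, where 2 of 4 M2 arrays were well above background (-3.11 ± 0.22, adjusted p = 3.95e-09), and 4.76-fold in KO (-2.25 ± 0.22, adjusted p = 4.54e-07 in limma). With normexp background correction the differences were smaller, at -2.05 in WT and -1.66 in KO, and both passed. This WT value is smaller than the bound of 7.92-fold, which holds for the main processing only.

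The KO M2 level of Icosl was above the WT M2 level within each of the 4 sets, by 0.72 to 1.24, with groups that overlapped by 1 WT array. The difference was 0.98 ± 0.22 (adjusted p = 0.172), and 1.07 (adjusted p = 0.0224) without the fourth set. It passed under 2 of the 18 settings run. With M1 activation Icosl was -0.94 ± 0.22 in KO (adjusted p = 8.28e-04) and -0.42 ± 0.22 in WT (adjusted p = 0.116). The WT difference passed under 2 of the 18 settings run, among them the fit without the fourth set (-0.54, adjusted p = 0.0145). The difference of these responses was -0.52 ± 0.31 (adjusted p = 0.226). The second Icosl probe was not well above background on any M1 or M2 array, and it was so on 3 of 4 WT M0 and 4 of 4 KO M0 arrays. It thus passed the filter only through M0, the group where it was high, so its differences from M0 are given no weight here, and with normexp background correction its M1 differences did not pass.

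Cd40, the receptor through which helper T cells license macrophages, had the largest M1 rise of the 8 genes by their brightest probes. Its levels were -0.38, -1.41, -0.14 and -0.37 in WT M0 and 5.26, 5.30, 4.37 and 5.02 in WT M1, and -0.53, -0.99, -0.45 and -0.26 in KO M0 and 5.87, 5.83, 5.56 and 5.93 in KO M1. The M0 and M1 groups were far apart, and each KO M1 array was above each WT M1 array. The rise was 47.3-fold in WT and 81.9-fold in KO (adjusted p = 6.79e-13 and 5.09e-14 in limma).

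The M1 level of Cd40 was 1.76-fold higher in KO than in WT (0.81 ± 0.24, adjusted p = 0.00852 in limma), and 0.54 to 1.19 higher within the 4 sets. With quantile normalization the difference was 0.49 and did not pass (adjusted p = 0.114). The difference of the M1 responses was 0.79 ± 0.34 (adjusted p = 0.0862), and it passed under 3 of the 27 settings run. Among these were the set as a block (adjusted p = 0.00733) and the fit without the fourth set (0.80, adjusted p = 0.00312). Over all settings its adjusted p reached 0.353. IL-4 also raised Cd40, to 1.13, 1.16, 1.53 and 0.83 in WT M2 and 0.80, 1.04, 0.91 and 0.83 in KO M2. No M2 array overlapped with M0 or M1, and the rise was 3.34-fold in WT and 2.74-fold in KO (adjusted p = 3.57e-05 and 2.92e-04). The order of Cd40 was KO M1 above WT M1, then M2 of both genotypes, then M0 of both, and the genotypes overlapped in M2 and in M0.

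Tnfsf9, the 4-1BB ligand, rose with M1 activation in both genotypes. Its levels were -0.56, -2.23, -0.55 and -0.92 in WT M0 and 1.27, 0.96, 0.37 and 0.99 in WT M1, and -0.40, -1.97, -1.0 and -0.75 in KO M0 and 1.14, 0.84, 0.94 and 0.88 in KO M1. The lowest M0 array of each genotype was that of the fourth set, and no M1 array overlapped with M0. The rise was 3.9-fold in WT and 3.95-fold in KO (adjusted p = 3.70e-04 and 2.40e-04 in limma), and KO minus WT in M1 was 0.05 ± 0.40. With IL-4 the levels were -1.34, -2.39, -2.42 and -3.20 in WT and -1.27, -2.33, -1.80 and -2.34 in KO. The difference from M0 was -1.27 ± 0.40 in WT (adjusted p = 0.0371), and in KO it was -0.90 ± 0.40 (adjusted p = 0.150). The KO difference passed under 2 of the 19 settings run, the set as a block (adjusted p = 0.0099) and the fit without the fourth set (-1.08, adjusted p = 0.0212). The WT call held under only 9 of the 19 settings run and was lost with quantile normalization (adjusted p = 0.0661), and M0 and M2 overlapped in both genotypes.

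**Figure D3:**
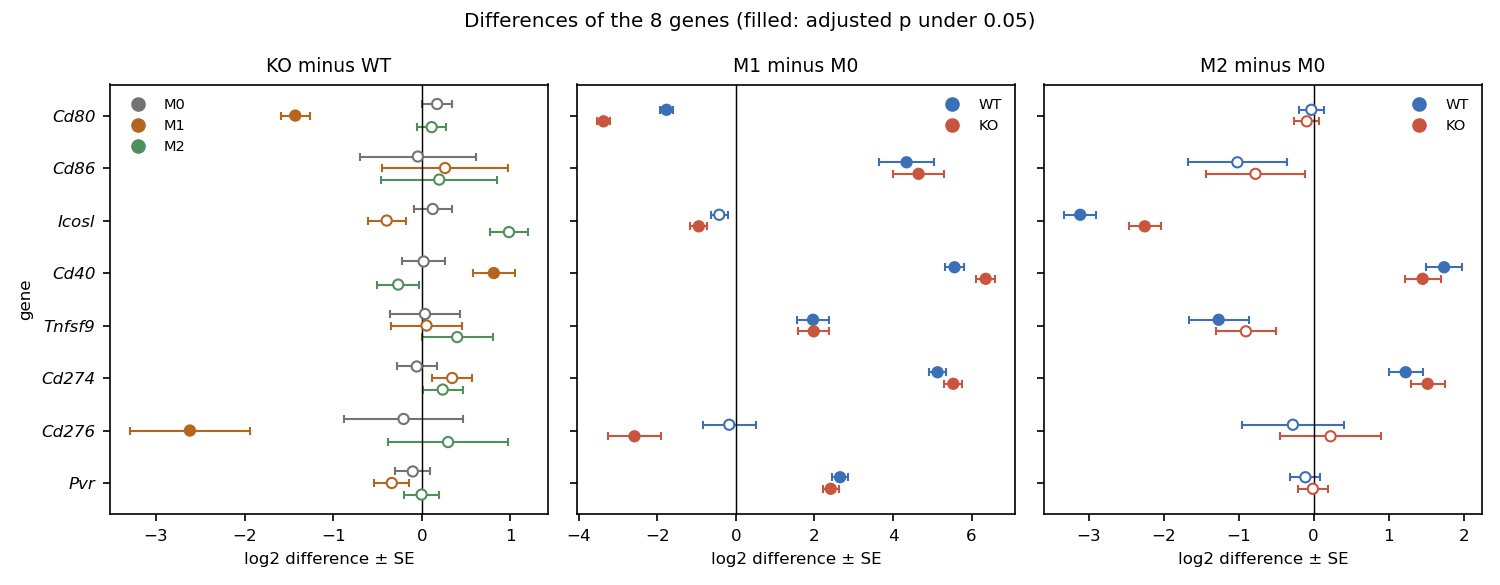
Differences of the 8 genes by their brightest probes, as log2 difference ± SE of the limma fit, for KO minus WT in each state (left), M1 minus M0 (middle) and M2 minus M0 (right); filled points have an adjusted p under 0.05. The KO minus WT points in M0 and M2 are all open, and in M1 those of Cd80, Cd276 and Cd40 are filled.

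Of the inhibitory members, Cd274 (PD-L1) rose with both stimuli. The WT arrays read 2.00, 2.60, 2.12 and 2.82 at M0, 7.67, 7.42, 7.33 and 7.65 at M1 and 3.21, 3.34, 3.62 and 4.28 at M2. The KO arrays read 2.28, 2.72, 2.05 and 2.27 at M0, 8.12, 7.91, 7.53 and 7.88 at M1 and 3.49, 3.93, 3.77 and 4.21 at M2. The 3 states did not overlap, while the genotypes overlapped in each state. The M1 rise was 35.1-fold in WT and 46.2-fold in KO (adjusted p = 1.01e-12 and 1.25e-13 in limma), and the M2 rise 2.34-fold and 2.87-fold (adjusted p = 7.73e-04 and 1.05e-04). KO minus WT in M1 was 0.34 ± 0.23 (adjusted p = 0.233), above 0 in each of the 4 sets, and the quantile-normalized value was 0.11.

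Cd276 (B7-H3), a B7 family protein whose receptor on T cells is not settled, was lowest in KO M1. Its levels were -2.03, -1.49, -1.76 and -2.09 in WT M1 and -4.79, -4.16, -4.52 and -4.36 in KO M1, where 3 of 4 arrays were well above background. The KO M1 arrays were below all 20 others, and in no other state were the genotypes apart. The difference in M1 was at least 5.73-fold (-2.62 ± 0.68, adjusted p = 0.00322 in limma), and the sets gave -2.76 to -2.27. With normexp background correction it was smaller than this bound, at -1.76 (adjusted p = 0.0168).

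In the other states Cd276 varied widely between arrays, with -0.19, -3.44, -1.33 and -1.73 in WT M0, -1.17, -3.26, -1.75 and -1.34 in KO M0, -0.06, -2.00, -1.97 and -3.77 in WT M2 and -0.66, -1.62, -1.42 and -2.91 in KO M2. Replicate 1 was the highest and the array of the fourth set the lowest in each of these groups. With M1 activation Cd276 fell in KO, by at least 5.59-fold (-2.58 ± 0.68, adjusted p = 0.00261), and was at -0.17 ± 0.68 in WT. With normexp background correction the KO fall was smaller than this bound, at -1.71. The difference of the KO and WT responses was -2.41 ± 0.96 (adjusted p = 0.0629) and passed under 7 of the 26 settings run. Among these were the replicate number (adjusted p = 0.0388) or the set (adjusted p = 0.00913) as a block and the fit without the fourth set (-2.23, adjusted p = 0.020). Over all settings its adjusted p reached 0.194.

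Pvr (CD155), which activates through CD226 and inhibits through TIGIT, rose with M1 activation in both genotypes on both probes. By the brighter probe its levels were 1.86, 1.29, 1.61 and 1.44 in WT M0 and 4.37, 4.44, 3.53 and 4.46 in WT M1, and 1.77, 1.13, 1.59 and 1.29 in KO M0 and 4.18, 3.86, 3.58 and 3.82 in KO M1. No M1 array overlapped with M0, and the lowest M1 array of each genotype was that of the fourth set. The rise was 6.28-fold in WT and 5.33-fold in KO (adjusted p = 1.17e-09 and 1.84e-09 in limma), and 8.97-fold and 6.95-fold by the second probe. KO minus WT in M1 was -0.34 ± 0.20 (adjusted p = 0.177), and it passed under 3 of the 19 settings run. These were the set as a block (adjusted p = 0.0369) and the fits without replicate 3 of WT M1 (-0.56, adjusted p = 0.0132) or without the fourth set (-0.47, adjusted p = 0.0233). Over all settings its adjusted p reached 0.370. With IL-4 Pvr was at -0.11 ± 0.20 in WT and -0.01 ± 0.20 in KO.

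Set directly against each other, M1 and M2 differed for most of the 8 genes. In WT 6 were higher in M1 and 1 lower, where 47.8% of all probes were called (27.8% higher, 20% lower). In KO 6 were higher and 2 lower, where 58.2% were called (34.7% higher, 23.5% lower). By probe, 13 of 16 were higher and 1 lower in WT, and 10 and 4 in KO. The lower gene in WT was Cd80 by its brightest probe (-1.73 ± 0.17), whereas its 3 other probes were higher in M1 than in M2 (1.62 ± 0.33 by A_51_P418295, 0.57 ± 0.21 by A_52_P244005 and 0.59 ± 0.24 by A_66_P130432). The last 2 did not pass under each alternative. The arrays did not overlap for 7 genes in WT and 8 in KO, against 42.9% and 52.7% of all probes. The M1 samples that enter this comparison are those of the M1 minus M0 comparison, so the counts are not independent. Icosl was at least 5.91-fold higher in M1 than in M2 in WT (2.69 ± 0.22, and 1.72 with normexp background correction) and 2.48-fold higher in KO, and Tnfsf9 was 9.38-fold and 7.38-fold higher.

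In the comparison of the genotypes, 1 of the 8 genes (Cd40) was higher and 2 (Cd80, Cd276) were lower in KO M1, and by probe 2 of 16 were higher and 5 lower. Over all probes 45.5% were called in this comparison, 24.4% higher and 21.1% lower, so the share of the 8 genes that was called lay close to that of all probes. The KO and WT arrays of M1 did not overlap for 3 of the 8 genes, against 44.5% of all probes. All probes had a median of 0.14 here, which was -0.03 after quantile normalization, and the 8 genes had a median of -0.14.

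In M0 and in M2, 0 of the 8 genes and 0 of the 16 probes differed between KO and WT in limma, against 0.0412% (0.00772% higher, 0.0335% lower) and 0.0592% (0.0335% higher, 0.0257% lower) of all probes. The genotypes overlapped for each of the 8 genes in both states, while 2.4% and 2.46% of all probes did not overlap. At an unadjusted p under 0.05, 0 of the 8 genes differed in M0 and 1 in M2, which was Icosl. Of all 38856 probes, 3.29% in M0 and 4.71% in M2 were under the same limit. Differences of the 8 genes ranged from -0.21 to 0.17 in M0 and from -0.27 to 0.98 in M2. The difference of the M1 response between the genotypes passed for 1 gene, Cd80, and 4 probes, where 30.5% of all probes passed (16.1% higher, 14.4% lower). The difference of the M2 response passed for 0 of 8, as for 0% of all probes, with 1 gene (Icosl) and 408 of 38856 probes at an unadjusted p under 0.05.

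**Figure D4:**
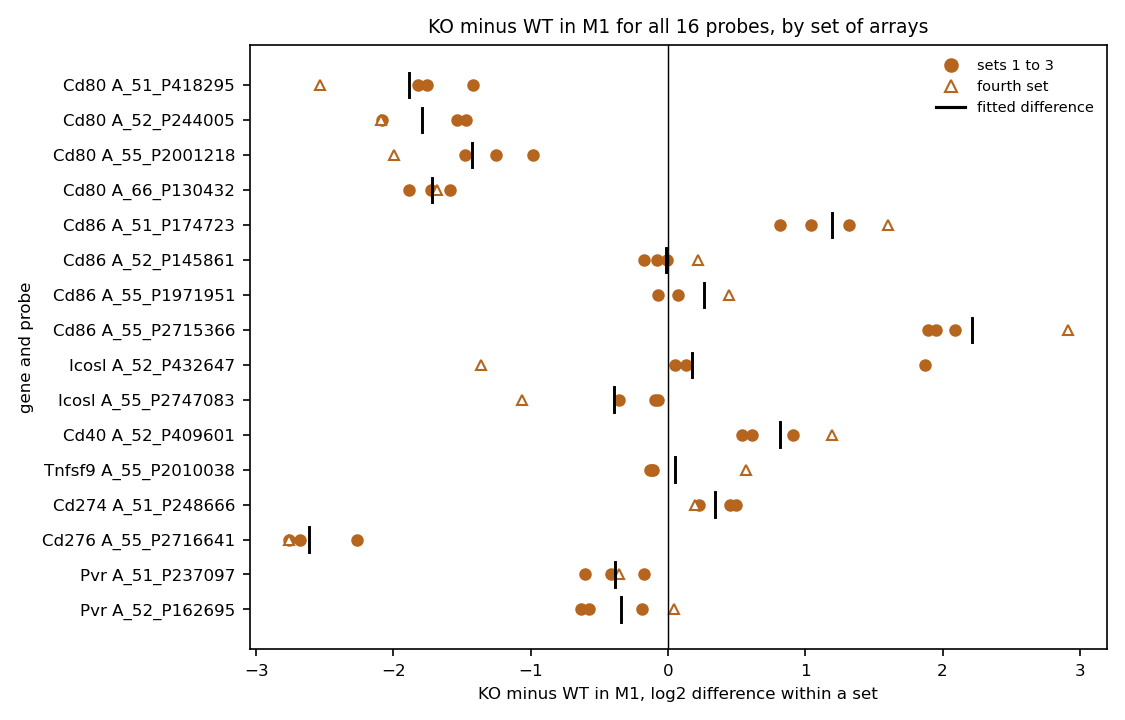
KO minus WT in M1 for all 16 probes, as the log2 difference of the 2 arrays of each set (points, with the fourth set as open triangles) and as the fitted difference (bars). The 4 Cd80 probes and Cd276 lie below 0 in each set and Cd40 and the Cd86 probes A_51_P174723 and A_55_P2715366 above 0. Icosl A_55_P2747083 and Pvr A_51_P237097 also lie below 0 in each set and Cd274 above 0, though their fitted differences did not pass. The points of Tnfsf9, Icosl A_52_P432647, Pvr A_52_P162695 and the Cd86 probes A_52_P145861 and A_55_P1971951 lie on both sides.

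The counts for the following gene lists are read against all probes, of which 48.1% were called for M1 minus M0 in WT and 57.6% in KO, 15.1% and 13.5% for M2 minus M0, and 45.5% (24.4% higher, 21.1% lower, median 0.14) for KO minus WT in M1. Among 21 other co-stimulatory and checkpoint ligands, 18 were measured. With M1 activation 8 rose and 5 fell in WT and 7 rose and 4 fell in KO (medians of 0.38 and 0.29). Cd200, which restrains myeloid cells through its receptor, rose by 4.72 ± 0.50 in WT and 6.2 ± 0.50 in KO, and Tnfsf4, the OX40 ligand, was at least 13.7-fold and 12.0-fold higher, with 1 of 4 M0 arrays well above background in each genotype. Pdcd1lg2 (PD-L2), the second ligand of PD-1, rose by 3.18 and 1.98 with M1 activation, and by 7.13 ± 0.49 in WT and 6.41 ± 0.49 in KO with IL-4. With IL-4 1 gene of the list rose, Pdcd1lg2, and 6 fell in WT and 3 in KO, among them Tnfsf14 (LIGHT) at -1.41 and -1.22. In KO M1, 2 were higher than in WT M1, Tnfsf15 (TL1A) at 3.66 ± 0.28 and Cd200 at 1.67 ± 0.50, and 2 were lower, Nectin2 at -1.66 ± 0.30 and Cd48 at -0.70 ± 0.11.

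Of 14 genes of CD40 signalling, 11 rose and 0 fell with M1 activation in WT, and 12 rose and 0 fell in KO. Traf1, an adaptor of tumour necrosis factor receptors, rose by 5.32 and 5.72. In KO M1 6 were above WT M1 and 2 below, with a median of 0.36, where 45.5% of all probes were called and their median was 0.14. Traf3, which restrains noncanonical NF-kappaB signalling, was at 1.89 ± 0.12, Relb at 1.44 ± 0.19, the deubiquitinase gene Tnfaip3 at 1.3 ± 0.22 and Nfkb2 at 1.13 ± 0.19.

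Of 12 genes of interferon gamma signalling 11 rose and 1 fell with M1 activation in WT, and 10 rose and 1 fell in KO. Socs1, an inhibitor of the Janus kinases, rose by 8.27 and 6.74, and Socs3, a related inhibitor, by 5.52 and 4.88. In KO M1 3 were above WT M1 and 4 below. Ciita, the class II transactivator, was at 1.94 ± 0.36, the repressor Irf2 at -1.41 ± 0.14, Socs1 at -1.18 ± 0.26 and the kinase Jak2 at 1.14 ± 0.27.

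Of 8 genes of IL-4 signalling 3 rose and 2 fell with IL-4 in WT and 3 rose and 1 fell in KO, with Socs1, Cish and Irf4 rising by 6.07, 5.72 and 5.15 in WT. In KO M1 2 were above WT M1 and 3 below, among them the receptor chain Il4ra at -1.27 ± 0.24. Of 8 genes that handle the PD-L1 and B7 proteins, 1 was above and 3 below WT in KO M1, a share close to the 45.5% of all probes. Marchf8, a ubiquitin ligase that removes CD86 and class II molecules from the surface, was at 1.17 ± 0.11, and Cmtm6, which keeps PD-L1 from degradation, at -0.99 ± 0.12. Of 12 receptors of the ligands, found mostly on T cells, 8 were measured, and 2 were above and 1 below in KO M1: Cd28 at 2.87 ± 0.29, Btla at least 2.03-fold higher with 3 of 4 WT M1 arrays well above background, and Havcr2 (TIM-3) at -2.32 ± 0.51.

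Markers of other cell types moved with some of these results. The summed level of 7 dendritic cell markers, in units of the array's 75th percentile, was 0.174 to 0.337 in WT M0 and 2.83 to 12.2 in WT M1, and 0.22 to 0.416 in KO M0 and 3.38 to 15.8 in KO M1. Of 6 tested, 3 rose with M1 activation in WT, Ccr7, Zbtb46 and Clec9a, and 4 in KO, beside the rises of Cd40, Cd86 and Cd274. The largest rise was that of Ccr7, at 7.01 in WT and 7.12 in KO, and Clec9a was well above background on 0 of 4 WT M0 arrays. In WT Flt3 (-0.62), Cd209a (-0.25) and Dpp4 (0.46) did not pass, and Xcr1 was under the filter. The part of the dendritic cell markers in the rises of Cd40, Cd86 and Cd274 was not tested. Between KO and WT in M1 the summed levels overlapped for dendritic cells and neutrophils (18.3 to 33.4 in WT and 26.6 to 58.6 in KO). The neutrophil genes Ly6g, Ngp and Camp were at -2.75, 2.36 and 2.28. The dendritic cell markers moved in both directions, with Zbtb46 at -1.66 ± 0.26 and Cd209a at 0.82 ± 0.22 (adjusted p = 0.00376 in limma). The Cd209a signal was dim, being well above background on 2 arrays of WT M1 and 1 of KO M1. Flt3 (0.66), Ccr7 (0.66), Dpp4 (0.45) and Clec9a (-0.37) did not pass. For T cells the sums were 3.41 to 5.03 and 3.68 to 5.35, for B cells 0.436 to 1.84 and 0.438 to 0.574, for fibroblasts 0.957 to 1.4 and 0.812 to 4.05, and for mast cells 0.364 to 0.822 and 0.565 to 3.56, where Kit was at least 3.84-fold higher in KO with 0 of 4 WT arrays well above background. The macrophage sum was 746 to 886 in WT M1 and 618 to 941 in KO M1, with Mertk at -1.5 ± 0.34 and Cd68 at 0.52 ± 0.11. The part of these markers in the genotype differences was not tested.

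The genes whose pattern over the 24 arrays came closest to each member were found by the root mean square difference of their levels, each centred on its own mean, among 15717 named genes. For Cd80 (brightest probe) they were Fbxo31, Ppfia4 and Dab2 (0.29, 0.34 and 0.36 log2 units, against a range of 4.19 for Cd80 itself). For Cd86 they were Xaf1, Calhm6 and Gbp7 (0.68, 0.69 and 0.71), and for Cd40 Adora2a, Serpina3i and Slamf8 (0.44, 0.57 and 0.57). Slamf8 was also the closest gene to Cd274 (0.49), followed by Ass1 and Plpp3. Icosl came closest to F11r, Fbxl4 and Rsph9 (0.42, 0.43 and 0.47), Cd276 to Ociad2, Pdgfb and Cdk6 (0.55, 0.58 and 0.59), Tnfsf9 to St3gal5, Cyfip2 and Ehd1 (0.36, 0.41 and 0.42) and Pvr to Ube2l6, Prdx6 and Traf2 (0.25, 0.26 and 0.26). The arrays share slides and sets, so this likeness is a description of these libraries.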

How the data were processed

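RNA was labelled with Cy3 and hybridised to 1 array per sample, per the labels' protocols. The deposited scanner files hold processed signals, which are linear intensities, background-subtracted and detrended within the array by the authors; the file headers name version 10.7.3.1 of the Agilent Feature Extraction software (the submitters' processing notes name version 9.1). Per array, 59305 gene spots were read and 0 were saturated. Spots marked as outliers were left out, spots of a probe averaged and log2 intensities taken relative to the array's 75th percentile (1504 to 2973 intensity units). Probes well above background on at least 4 of 24 arrays were kept, and 52.5% to 71.4% of gene probes were so per array. The number of arrays limits the precision.

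Groups were fitted with 1 mean each in limma 3.58.1 under R 4.3.3 (18 residual degrees of freedom), with Benjamini-Hochberg adjustment over 38856 probes, on code tested on simulated data. A fold against a group not well above background on every array was taken against the dimmest well measured signals of those arrays. It is written as "at least", and such a mean is over all arrays of the group. Such a bound holds for the main processing only. With normexp background correction the differences of Icosl and Cd276 were smaller than their bounds. The brightest probe over all arrays stood for a gene. Named were all 8 members, up to 4 called genes of each list with the largest change per comparison, and the 3 genes most like each member. The members and lists were chosen with earlier results of these data known. Same-numbered KO and WT arrays of a state share a set, and their deviations from the group means correlated at 0.162 to 0.841 in all 12 pairs. The lowest of these values lie within the range of arrays of different sets (-0.582 to 0.373). Arrays of the same set gave 0.0795 to 0.841 over all groups, so this likeness is not particular to pairs of KO and WT. Same-numbered arrays of different states did not pair (-0.428 to 0.561), since the numbers follow the sets only in part. Alternatives covered background correction, normalization, filters, outlier spots, blocks and left-out arrays; leaving out the fourth set was chosen after seeing the data. The value table of the series was not used here.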

Additional observations from a re-analysis of the deposited data

Results flagged for a closer look

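In 95 groups of 4 arrays of the 16 probes, 10 held an array far from the other 3, and 9 of these arrays belong to the fourth set; chance alone flags about 1 in 20 groups. For Cd86, replicate 3 of WT M1 was low on A_51_P174723 (3.09) and A_52_P145861 (2.59), and replicate 3 of KO M1 was low on A_51_P174723 (4.69), A_52_P145861 (2.81) and A_55_P1971951 (3.95), while replicate 4 of KO M2 was high on A_51_P174723 (-0.94). For Pvr, replicate 3 of WT M1 was low on A_51_P237097 (-1.71) and A_52_P162695 (3.53), and replicate 4 of KO M2 was low on A_52_P162695 (1.26). For Icosl, replicate 4 of WT M0, which is not of the fourth set, was high on A_52_P432647 (-4.40). These values are levels relative to the array's 75th percentile.

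The M1 response of Cd80 differed between the genotypes by the interaction term of the limma fit on all 4 probes, at -1.65 (A_52_P244005), -1.66 (A_66_P130432), -1.60 (A_55_P2001218) and -1.78 (A_51_P418295).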

How the results depend on the processing

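Of 176 member results, 77 were called, and 68 of these kept their call and direction under every alternative; 9 lost it under at least 1, and 18 others gained one under at least 1. Counts of called probes moved by over 1.5 times in these cases. With 1 probe per gene they were 11326 for KO minus WT in M1 (17673 probes in the main fit), 11 in M2 (23), 12337 and 14557 for M1 minus M0 in WT and KO (18673 and 22383), 3908 and 3370 for M2 minus M0 (5874 and 5228), 12342 and 14753 for M1 minus M2 (18582 and 22613) and 7704 for the M1 response difference (11843), where fewer features were tested. With only probes well above background on all 24 arrays KO minus WT called 7 in M0 (16) and 7 in M2. With only the groups compared, it called 10 in M0 and 9 in M2, and M2 minus M0 in WT called 3061. With the set as a block, KO minus WT in M2 called 50 and M2 minus M0 called 10300 in WT and 9494 in KO; without the filter the last called 10245, and without the fourth set KO minus WT in M2 called 89. The cause of these shifts was not tested. Leaving out single arrays gave 13 to 23 for KO minus WT in M2. The M2 response difference called 0 probes in every setting run. The replicate number as a block pairs KO and WT within a state, and across states it joins arrays of different sets in part. With it KO minus WT called 19 probes in M0. The block changed no member call beyond those given beside the results and that of Cd80 A_66_P130432 for M1 minus M2 in WT (0.59, adjusted p = 0.0449, and 0.0551 with the block). Probes near background, as for Icosl and Cd276, limit what a fall can show.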
